A study of Mus musculus with 9 samples.

Results

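The genes described here are the cyclins, cyclin-dependent kinases (CDKs), CDK inhibitors, Cks proteins, cell division cycle (Cdc) genes and centromere protein (Cenp) genes on a mouse cDNA array. They were taken by symbol: Ccn, Cdk or Cks followed by its number, Cdkn1 or Cdkn2, Cdc with a number, or Cenp. This gave 61 genes with 88 probes, out of 7118 genes with a probe of 1 symbol and 16128 probes in all, and 18 of the 61 had more than 1 probe. The classes held 11 cyclins, 14 CDKs, 5 Cdkn genes, 2 Cks genes, 15 Cdc genes and 14 Cenp genes. A shared symbol is not a shared function. Cdc40 and Cdc5l act in splicing, Cdc37 is a chaperone partner, and the product of Cenpj sits at the centriole rather than the centromere.

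The study set whole testes of juvenile Spo11-/- mice against whole testes of wild-type mice, in 4 competitive hybridisations at 15 days of age and 5 at 12 days. Each array carried total RNA of both genotypes, 1 in the dye Cy5 and the other in Cy3. The knockout is of the whole animal, and Spo11, whose topoisomerase-related product cuts DNA to start meiotic recombination, has no probe on the array, so the targeted gene could not check the labels. Per the design text each array had a different mouse pair from 1 litter, in quadruplicate, although 5 arrays are labelled as 12 days. Nothing says which arrays shared RNA, so p-values measure the spread between these arrays only. The strain was not given in the sources used here.

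Cyclins bind CDKs and switch them on. D-type cyclins with Cdk4 or Cdk6 act in G1, E- and A-type cyclins with Cdk2 at the start of DNA replication, and B-type cyclins with Cdk1 at entry into division, helped by the small Cks subunits. Cdc20 then hands substrates, among them B-type cyclins, to the anaphase promoting complex, while Cenp proteins build the centromere that the spindle grips. In the juvenile testis these genes serve 2 kinds of division in the same tissue, the mitoses of spermatogonia and Sertoli cells and the meiotic programme of spermatocytes, which prepare division genes during the long prophase.

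Every value below is a log ratio as the authors centred it, so 0 is the middle of the array. The base was not given and was taken as log2, so 1 is read as a doubling. Every fold below rests on that base. The direction of the ratio is not settled. All arrays at 15 days had knockout RNA in Cy3, and across probes they correlated at r = 0.38 to 0.60 with each other. They correlated at r = -0.38 to -0.33 with 12-day replicate 3 and at r = -0.25 to -0.11 with 12-day replicate 2, which had the same dye orientation. With 12-day replicates 1, 4 and 5, of the other orientation, r was -0.07 to -0.01, -0.03 to 0.03 and -0.23 to -0.02. Between 12-day arrays of opposite orientation, as deposited, r ran from 0.004 to 0.29. Between 12-day arrays of the same orientation it ran from -0.13 to 0.45. The 15-day values therefore keep their deposited sign. A value below 0 means a transcript more abundant in the knockout if the ratios are Cy5 over Cy3. It means one less abundant in the knockout if the authors divided knockout by wild type. Turning the sign turns every 15-day value together. With 1 orientation at 15 days, dye and genotype cannot be told apart there. At 12 days the knockout was in Cy5 on replicates 1, 4 and 5 and in Cy3 on replicates 2 and 3. Values there are given as deposited or, where that is said, as a knockout effect. That effect is positive where higher in the knockout, and it holds only if ratios are Cy5 over Cy3. If the authors divided knockout by wild type, the same estimate sets 1 dye orientation against the other and is no knockout effect. An array gave values for 72.1% to 91.3% of its probes, and ratios hold no level, so the tissue could not be checked by the presence of its markers.

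At 15 days 9 of the 59 members with at least 3 values passed the test, 3 above 0 and 6 below. The 6 below 0 were Ccnb2, Cks2, Cenpn, Cenpq, Cdc20 and Cenpj, by 1.37-fold to 1.99-fold. The 3 above 0 were Cdk13, Cdc14b and Ccnd1, by 1.33-fold to 1.47-fold. The test was limma on the array values against 0, with Benjamini-Hochberg adjusted p under 0.05 over 12198 features. The 9 are 15.3% of the members tested, against 11.2% of all genes. Above 0 the share was 5.08% of members against 4.04% of genes, and below 0 it was 10.2% against 7.2%. Among all features, which include probes without a gene, 12.4% passed. The members' share lies close to the background, so the count itself does not set these genes apart. Their median was 0.03, against -0.02 for all genes tested. Cdk18 (0.52 and 0.29) and Cenpo (0.69 and 0.37) had values on replicates 3 and 4 only and were not tested. In whole-testis RNA, fewer cells of a type and less RNA per cell cannot be told apart.

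**Figure D1:**
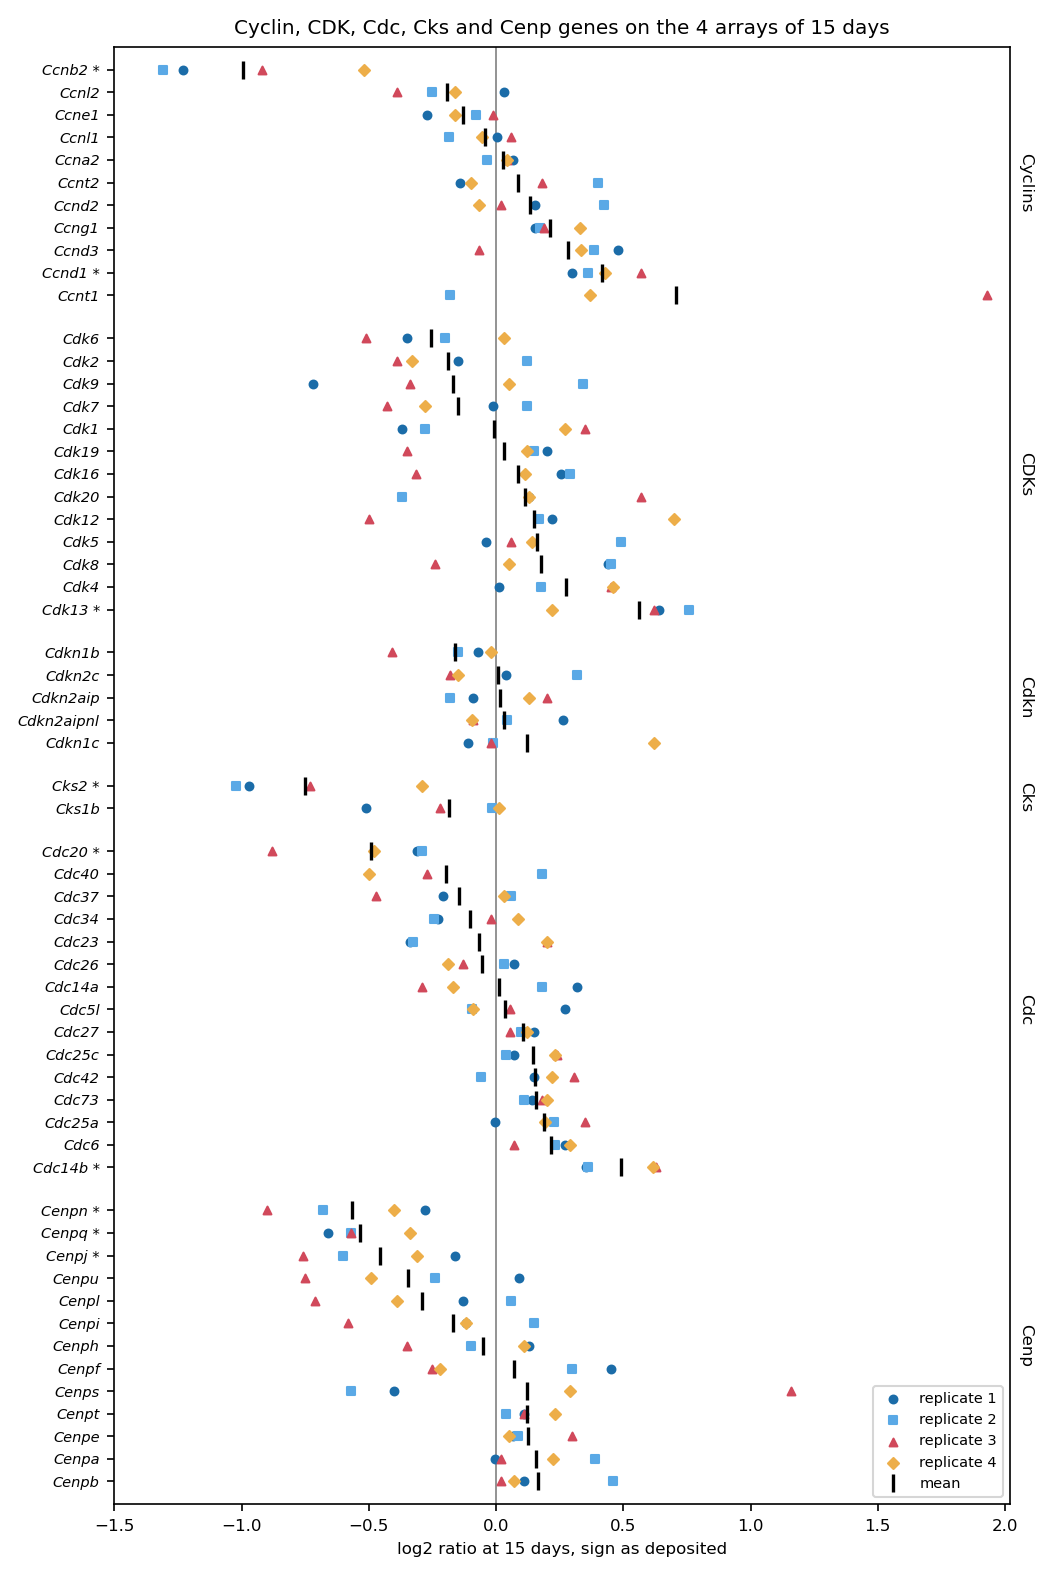
Log2 ratios at 15 days, sign as deposited, of the 59 genes tested, 1 row per gene, grouped by class. Symbols are the 4 arrays, black bars the means, and stars the 9 genes past the limma threshold. Ccnb2 has the lowest mean (-0.995), and Ccnt1 the highest (0.71) with its arrays spread from -0.18 to 1.93.

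Ccnb2 encodes cyclin B2, a partner of Cdk1 at the entry into division. Its log2 ratios were -1.23, -1.31, -0.92 and -0.52 on 15-day replicates 1 to 4. Their mean lay below the 5th percentile of gene means, which was -0.46. The mean was -0.995 (SE 0.14, n = 4, 95% interval -1.31 to -0.68), a 1.99-fold difference with limma adjusted p = 0.0046. At 12 days only replicates 3 (0.47) and 4 (-0.07) had a value, so no test was made. A related pseudogene, Ccnb2-ps, has a probe of its own, with -0.10, -0.10, -0.42 and -0.41 on the 15-day arrays (mean -0.26, SE 0.11, limma adjusted p = 0.14). Its pattern over the arrays is another one, with the values nearest 0 where those of Ccnb2 were farthest from it. Cross-hybridisation between near-identical transcripts was not tested.

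Cks2, whose product binds CDKs and is needed for the first meiotic division in mice, had -0.97, -1.02, -0.73 and -0.29 at 15 days. As for Ccnb2, replicate 4 was nearest 0 and replicates 1 and 2 were farthest. The mean was -0.75 (SE 0.13, n = 4, 1.68-fold, limma adjusted p = 0.011). Its close relative Cks1b, which also serves the ubiquitin ligase that degrades p27, had -0.51, -0.02, -0.22 and 0.01 over 2 probes. That is a mean of -0.18 (SE 0.12, limma adjusted p = 0.32), with arrays on both sides of 0.

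Cdc20, the activator of the anaphase promoting complex, had -0.31, -0.29, -0.88 and -0.48 at 15 days. The 4 arrays were all below 0, with replicate 3 the farthest from it. The mean was -0.49 (SE 0.12, n = 4, 1.40-fold, limma adjusted p = 0.034). Cdc20 had 1 value at 12 days, 0.08 on replicate 3. The complex itself is represented among the Cdc genes by 3 of its subunits. Cdc23 had a mean of -0.07 (95% interval -0.35 to 0.22), Cdc26 of -0.06 (-0.28 to 0.17) and Cdc27 of 0.11 (-0.11 to 0.32), and none of them passed.

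Of the 13 Cenp genes tested at 15 days, 3 passed and all 3 were below 0, beside 11.2% of all genes that passed and 7.2% that passed below 0. Cenpq, part of the inner kinetochore group around CENP-O, had -0.66, -0.57, -0.57 and -0.34, a mean of -0.54 (SE 0.10, n = 4, 1.45-fold, limma adjusted p = 0.015). Cenpn, whose product recognises nucleosomes that hold the centromeric histone CENP-A, had -0.28, -0.68, -0.90 and -0.40. Its mean was -0.56 (SE 0.12, n = 4, 1.48-fold, limma adjusted p = 0.023). The centriole gene Cenpj had -0.16, -0.60, -0.76 and -0.31, a mean of -0.46 (SE 0.12, n = 4, 1.37-fold, limma adjusted p = 0.041). Each of these 3 was below 0 on every array, and Cenpq was the most even across them. After the local median of neighbouring spots was subtracted, the mean of Cenpq was -0.34 (limma adjusted p = 0.026). Cenpn and Cenpj shared an order of arrays, with replicate 3 lowest and replicate 1 nearest 0.

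The other 10 Cenp genes did not pass. Cenpu (0.09, -0.24, -0.75 and -0.49, mean -0.35, limma adjusted p = 0.12) and Cenpl (-0.13, 0.06, -0.71 and -0.39, mean -0.29, limma adjusted p = 0.17) belong to the same inner kinetochore network as Cenpq and Cenpn. Both had replicate 3 lowest, as Cenpn and Cenpj did, and an array on the other side of 0. Cenph (-0.05) and the X-linked Cenpi (-0.17) of that network, and Cenpt (0.12), had means within 0.17 of 0. Cenpa, which encodes the histone that marks the centromere, lay at 0.16, Cenpb, which binds its satellite DNA, at 0.165, and the kinesin gene Cenpe at 0.125. Cenps, whose product also acts in DNA repair, ranged from -0.57 on replicate 2 to 1.16 on replicate 3, the widest spread of the class. The median of the class was -0.05.

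The promoter windows of 5 of the 6 genes below 0 are shown, because genes of the G2 and M phases are often under shared promoter elements. That the 6 lay on 1 side of 0 follows from how they were picked. The sixth, Cenpj, had none of the motifs in its window. Cdk1 is added as a well-known gene of that kind whose mean lay at -0.01, chosen after its value was seen. Each window runs from 250 bases before to 50 bases after the annotated gene start, in RefSeq sequence of build GRCm38.p6, 5′ to 3′ on the gene's strand. Ccnb2 is at chr9:70421505-70421804 (minus strand), Cks2 at chr13:51644982-51645281 (plus), Cdc20 at chr4:118437294-118437593 (minus), Cenpq at chr17:40934525-40934824 (minus), Cenpn at chr8:116921490-116921789 (plus) and Cdk1 at chr10:69352863-69353162 (minus). Capitals mark exact matches on either strand to the CHR element (TTTGAA or TTCAAA), the NF-Y box (CCAAT or ATTGG) and 2 forms of the E2F motif (TTTGGCG or CGCCAAA as the first, TTTCGCG or CGCGAAA as the second).
Ccnb2: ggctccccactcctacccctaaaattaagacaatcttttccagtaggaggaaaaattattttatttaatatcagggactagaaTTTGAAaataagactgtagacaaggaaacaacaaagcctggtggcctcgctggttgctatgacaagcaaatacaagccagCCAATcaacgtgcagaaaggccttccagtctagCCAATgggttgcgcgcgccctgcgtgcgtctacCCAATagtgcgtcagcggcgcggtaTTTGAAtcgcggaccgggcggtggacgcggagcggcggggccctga
Cks2: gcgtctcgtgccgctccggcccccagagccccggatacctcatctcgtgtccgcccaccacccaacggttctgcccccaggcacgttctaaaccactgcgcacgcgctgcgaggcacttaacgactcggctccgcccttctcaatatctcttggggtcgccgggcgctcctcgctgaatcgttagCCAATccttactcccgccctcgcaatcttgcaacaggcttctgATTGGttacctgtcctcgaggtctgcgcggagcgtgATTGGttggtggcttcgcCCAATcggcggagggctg
Cdc20: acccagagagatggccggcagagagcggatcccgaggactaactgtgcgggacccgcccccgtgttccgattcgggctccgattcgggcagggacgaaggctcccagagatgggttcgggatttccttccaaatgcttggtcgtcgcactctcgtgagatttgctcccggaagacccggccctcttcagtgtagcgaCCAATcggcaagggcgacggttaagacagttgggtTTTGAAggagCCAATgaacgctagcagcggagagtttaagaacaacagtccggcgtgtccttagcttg
Cenpq: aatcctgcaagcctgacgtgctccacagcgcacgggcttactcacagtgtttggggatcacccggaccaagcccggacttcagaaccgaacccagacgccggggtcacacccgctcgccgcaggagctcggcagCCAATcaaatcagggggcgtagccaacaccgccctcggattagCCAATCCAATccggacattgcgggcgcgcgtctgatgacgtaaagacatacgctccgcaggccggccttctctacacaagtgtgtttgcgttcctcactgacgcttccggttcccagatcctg
Cenpn: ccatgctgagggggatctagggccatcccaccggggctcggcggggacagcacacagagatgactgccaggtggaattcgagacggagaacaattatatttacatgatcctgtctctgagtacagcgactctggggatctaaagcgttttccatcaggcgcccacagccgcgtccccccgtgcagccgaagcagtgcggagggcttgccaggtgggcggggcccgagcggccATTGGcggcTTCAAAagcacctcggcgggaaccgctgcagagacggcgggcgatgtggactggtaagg
Cdk1: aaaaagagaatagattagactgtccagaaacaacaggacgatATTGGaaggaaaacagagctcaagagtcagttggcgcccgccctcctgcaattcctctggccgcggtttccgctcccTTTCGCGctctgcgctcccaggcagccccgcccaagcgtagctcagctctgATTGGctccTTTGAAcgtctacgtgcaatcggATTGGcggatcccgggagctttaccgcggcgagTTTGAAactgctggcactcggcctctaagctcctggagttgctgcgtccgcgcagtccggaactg

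In Ccnb2, 3 NF-Y boxes start at window bases 164, 197 and 230, spaced 33 and 33 bases apart, and CHR matches start at bases 84 and 255. Cks2 has 4 NF-Y boxes and no CHR match. Cdc20 has a CHR match at base 233 between NF-Y boxes at 198 and 243, and Cenpn has an NF-Y box at 233 followed by a CHR match at 242. Cenpq has 3 NF-Y boxes, of which those at 178 and 183 touch, and no CHR match. Among the 6 genes that passed below 0, with Cenpj counted and Cdk1 not, 5 held an NF-Y box, 3 held a CHR match and the same 3 held both. None of the 6 held an E2F motif.

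**Figure D2:**
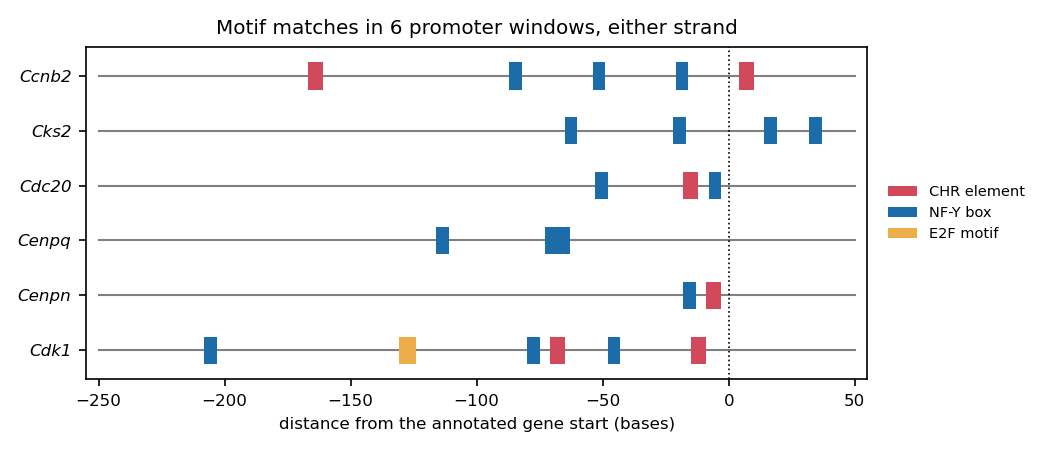
Positions of motif matches, either strand, in the windows of 5 genes below 0 at 15 days and of Cdk1 (mean -0.01), in bases from the annotated gene start (dotted line). Red marks are CHR elements, blue marks NF-Y boxes and the yellow mark an E2F motif. Ccnb2, Cdc20, Cenpn and Cdk1 carry both a CHR element and an NF-Y box.

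Among the 59 windows of the 53 members with a promoter entry, 52.5% held an NF-Y box, against 37.4% of 32851 windows of all genes. A CHR match was found in 20.3% of member windows against 17.9%, both motifs together in 15.3% against 6.95%, and an E2F motif in 8.47% against 2.37%. Of the 50 windows of the other members, those of the untested Cdk18 and Cenpo included, 25 held an NF-Y box and 6 held both motifs. Of the genes that passed above 0, Cdk13 had 1 window and Cdc14b 2, while Ccnd1 had no promoter entry. An NF-Y box was found in 1 of the Cdc14b windows, and a CHR match in none of these 3. The motifs were also present where the ratio lay at 0. Cdk1, with 2 CHR matches, 3 NF-Y boxes and an E2F motif, had -0.37, -0.28, 0.35 and 0.27 at 15 days, a mean of -0.01 with a 95% interval of -0.32 to 0.31. These matches are letters in a window and were not tested as binding sites.

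Above 0 at 15 days, the 3 genes that passed have separate roles. Cdk13, a kinase that acts on RNA polymerase II with cyclin K, had 0.64, 0.76, 0.62 and 0.22. The mean was 0.56 (SE 0.12, n = 4, 1.47-fold, limma adjusted p = 0.019), with replicate 4 nearest 0. Cdc14b, a dual-specificity phosphatase that counters CDK phosphorylation, had 0.35, 0.36, 0.63 and 0.62 as the average of 3 probes. Its mean was 0.49 (SE 0.11, n = 4, 1.41-fold, limma adjusted p = 0.021), and the probes' own means ran from 0.35 to 0.70, all above 0. Ccnd1, the cyclin D1 gene, had 0.30, 0.36, 0.57 and 0.43, a mean of 0.415 (SE 0.10, n = 4, 1.33-fold, limma adjusted p = 0.031). All 4 of its arrays were above 0. After the local median of neighbouring spots was subtracted, the mean of Ccnd1 was 0.26 (limma adjusted p = 0.068). With 1 probe standing for Cdc14b, the mean was 0.35 (limma adjusted p = 0.056).

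**Figure D3:**
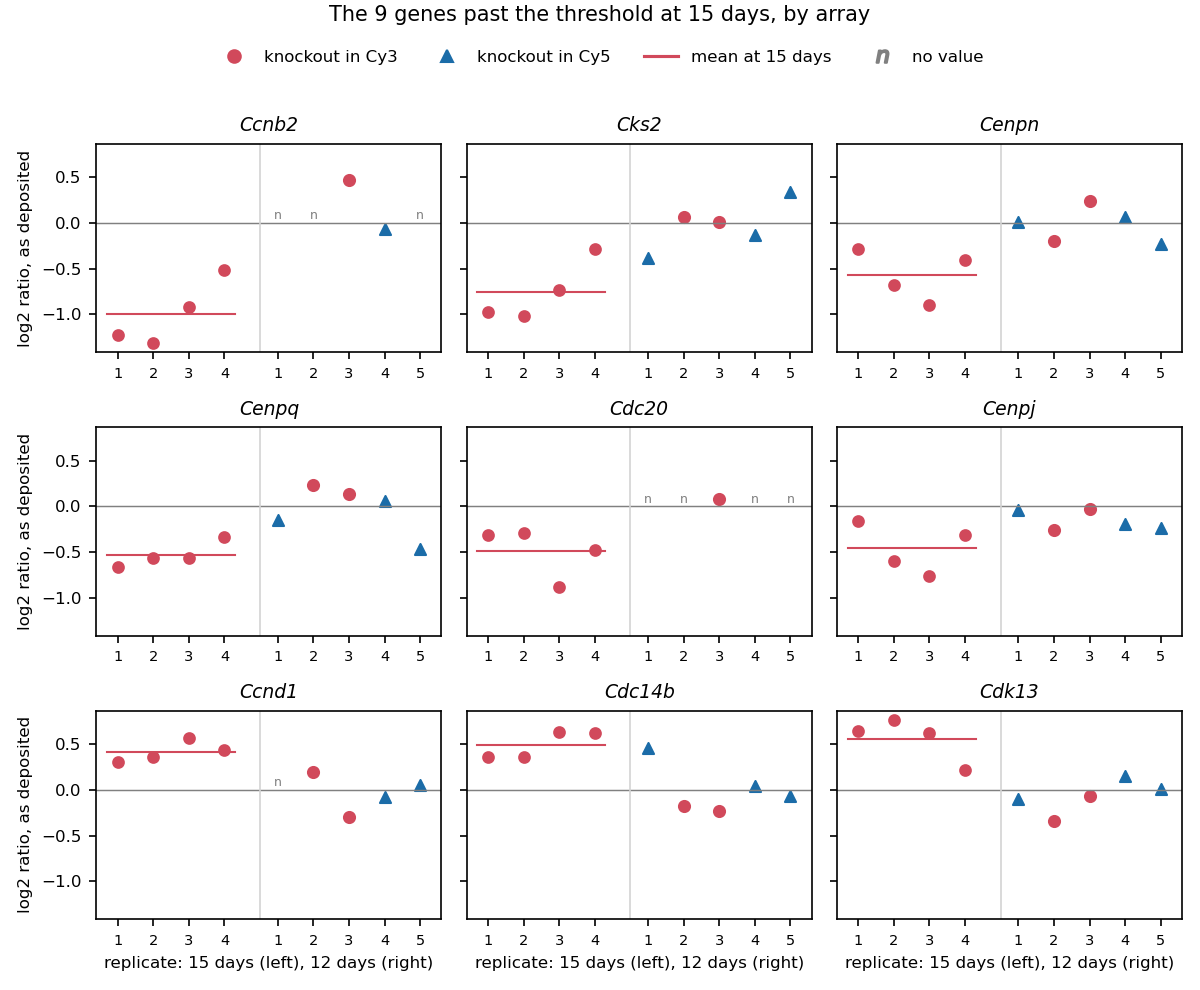
Log2 ratios as deposited of the 9 genes past the threshold at 15 days, 1 panel per gene, with 15-day arrays left of the grey line and 12-day arrays right of it. Red circles have knockout RNA in Cy3 and blue triangles in Cy5, red lines are 15-day means, and n marks no value. At 15 days, the age by which these genes were picked, the arrays of each gene lie on 1 side of 0. At 12 days they lie on both sides of it, except for Cenpj, always below 0, and Cdc20, with 1 value (0.08). If ratios are Cy5 over Cy3, a knockout effect at 12 days would change sign between red and blue symbols. The sides of 0 as deposited therefore cannot be compared between the ages.

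The remaining cyclins covered G1 and transcription. Ccnd3 had 0.48, 0.39, -0.07 and 0.34 (mean 0.28, limma adjusted p = 0.13), and Ccnd2 a mean of 0.13 over 5 probes whose means had both signs. Ccng1, a target of p53, was above 0 on every array (0.15, 0.17, 0.19 and 0.33, mean 0.21) at limma adjusted p = 0.18. Ccnt1, partner of the elongation kinase Cdk9, had the highest mean of all members at 0.71, with values of -0.18, 1.93 and 0.37 on replicates 2 to 4 and limma adjusted p = 0.18. The value on replicate 3 lay far above the other 2. Ccne1 (-0.13) and Ccna2, read over 3 probes (0.03, 95% interval -0.19 to 0.25), are cyclins of S phase, and neither passed.

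Of 13 CDKs tested at 15 days, Cdk13 was the 1 that passed. Cdk4, the D-cyclin kinase, had 0.01, 0.18, 0.45 and 0.46 over 2 probes whose means were 0.27 and 0.28 (mean 0.27, limma adjusted p = 0.14). Its counterpart Cdk6 had -0.35, -0.20, -0.51 and 0.03 (mean -0.26, limma adjusted p = 0.16), and Cdk2 had -0.15, 0.12, -0.39 and -0.33 (mean -0.19, limma adjusted p = 0.30). Means of the 10 CDKs other than Cdk13, Cdk4 and Cdk6 lay between -0.19 and 0.175. The X-linked Cdk16 lay at 0.09. The 2 kinases with the most mixed arrays were Cdk12 (0.22, 0.17, -0.50 and 0.70) and Cdk9 (-0.72, 0.34, -0.34 and 0.05).

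None of the 5 Cdkn genes passed at 15 days. The inhibitor genes Cdkn1b (p27), Cdkn1c (p57) and Cdkn2c (p18) had means of -0.16, 0.12 and 0.01. Cdkn1b was below 0 on every array (-0.07, -0.15, -0.41 and -0.02, limma adjusted p = 0.33). Cdkn2aip and Cdkn2aipnl, which are named for a partner of an inhibitor and are not inhibitors themselves, lay at 0.02 and 0.03. Among Cdc genes outside the 2 that passed, the licensing factor Cdc6 (0.27, 0.23, 0.07 and 0.29, mean 0.215, limma adjusted p = 0.18) and the transcription cofactor Cdc73 (0.14, 0.11, 0.18 and 0.20, mean 0.16, limma adjusted p = 0.30) were above 0 on every array. Cdc25a, a phosphatase that activates CDKs, had a mean of 0.19 over 5 probes and Cdc25c, its G2 relative, 0.145. Cdc14a, the paralogue of Cdc14b, had 0.32, 0.18, -0.29 and -0.17 with a mean of 0.01. Members with several probes did not always agree: for 6 of 18 the probe means at 15 days had both signs, namely Ccna2, Ccnd2, Ccnl1, Cdc23, Cdc42 and Cdc5l.

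Across the 57 members with a value on every 15-day array, 20 (35.1%) had the same sign on all 4, 12 above 0 and 8 below. Of all genes with 4 values 37.5% did so, 14.4% above and 23.1% below. The 6 members that passed below 0 had array medians of -0.485, -0.64, -0.82 and -0.37 on replicates 1 to 4, and replicate 4 was the nearest to 0 for 3 of them. Replicate 4 also had the smallest overall spread of the 15-day arrays, with an SD of 0.31 against 0.39 to 0.47. Medians over all members were 0.03, 0.06, -0.02 and 0.05 on those arrays, and over all genes -0.04, -0.04, -0.05 and -0.01.

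**Figure D4:**
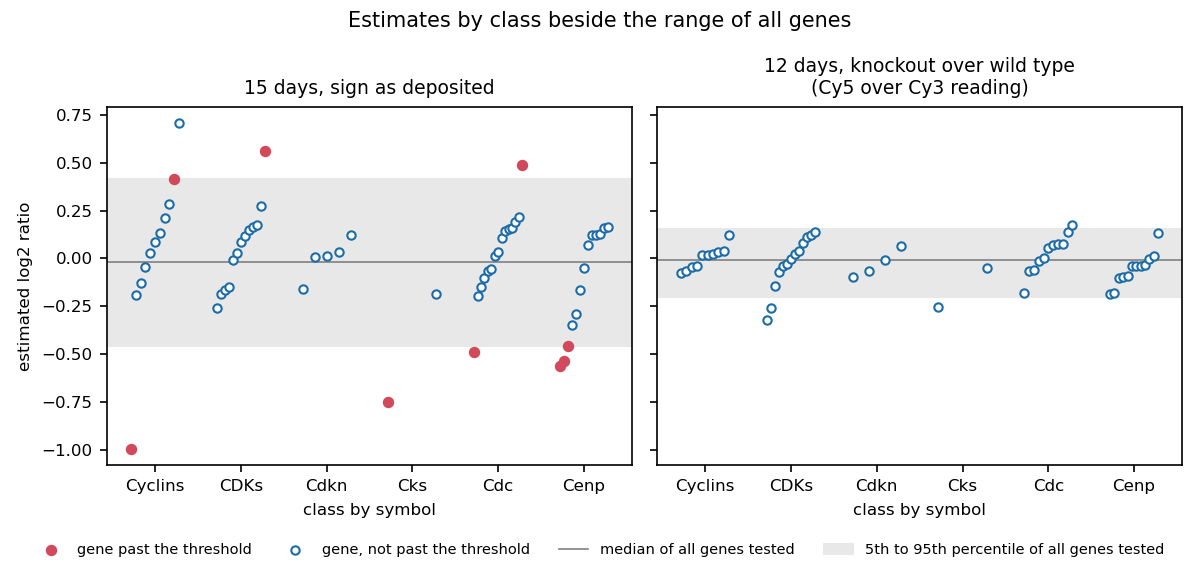
Estimated log2 ratio of each gene by class, at 15 days as deposited (left) and at 12 days as the knockout effect of a Cy5 over Cy3 ratio (right). Filled red points passed the limma threshold, the grey line is the median of all genes tested and the band their 5th to 95th percentile. At 15 days the band runs from -0.46 to 0.41 and holds most genes, and at 12 days no gene passed.

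With any 1 array left out, between 2 and 5 members passed at 15 days. Ccnb2 and Cks2 passed in all 4 such fits, with largest adjusted p = 0.020 and 0.042 in limma. Cenpq passed in 2, with adjusted p = 0.054 and 0.053 without replicates 1 and 3. Cdc14b also passed in 2 (0.074 and 0.057 without replicates 3 and 4), and so did Cenpn (0.070 and 0.081 without replicates 2 and 3). Cdk13 passed without replicate 4 alone and Cenpj without replicate 1 alone. Ccnd1 (0.065 to 0.10) and Cdc20 (0.056 to 0.11) passed in none. Without replicate 1, 5 members passed, without replicate 2, 4 did, without replicate 3, 2 did, and without replicate 4, 5 did. Of all features, 640 of 11908, 597 of 11496, 372 of 11466 and 1185 of 11501 passed in these fits, in the same order. With all 4 arrays 1515 of 12198 features passed, so calls were lost over the whole array as well. At adjusted p under 0.01 with at least 1.5-fold, the thresholds in the design text, Ccnb2 alone remained.

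**Figure D5:**
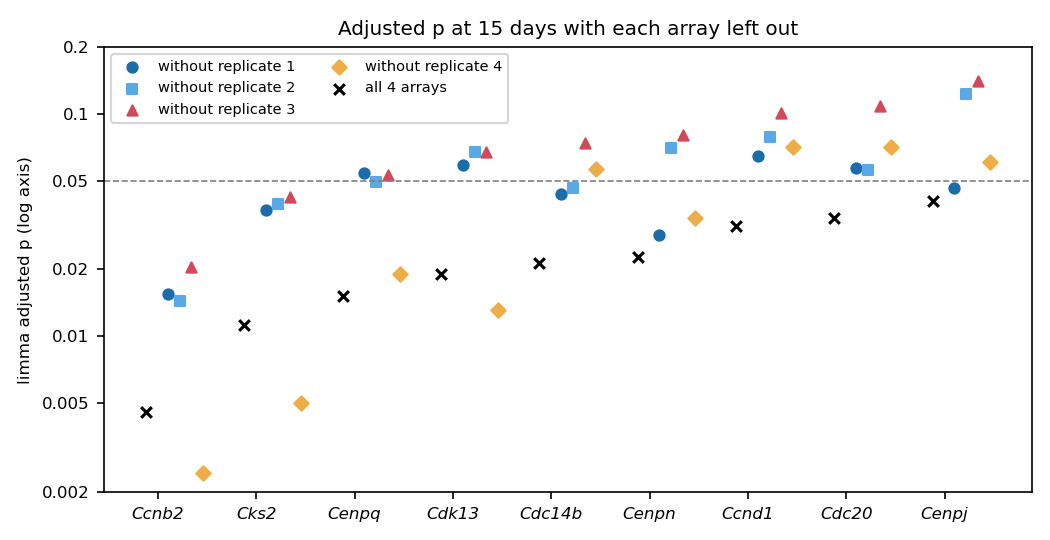
Limma adjusted p (log axis) of the 9 genes at 15 days with all 4 arrays (crosses) and with each array left out (coloured symbols). The dashed line is 0.05. Ccnb2 and Cks2 stay under the line in every fit, and Ccnd1 and Cdc20 lie above it in every fit that leaves an array out.

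At 12 days, with ratios read as Cy5 over Cy3, none of 52 members tested passed in limma, nor did any of 10075 features. A SAM-type statistic passed no member either, though it passed 29 features. With values as deposited and no dye term, the fit for a ratio of knockout over wild type, 0 members and 0 features passed in limma. At an unadjusted p under 0.05 there was 1 member, Cks1b, against 1.92% of genes. As deposited, Cks1b had -0.415, -0.295 and 0.05 with the knockout in Cy5 and 0.435 and 0.145 with it in Cy3. Its knockout effect was -0.25 (SE 0.10, 95% interval -0.51 to -0.003, limma unadjusted p = 0.048, adjusted p = 1.0). Of the 5 arrays, 4 had that direction and replicate 5 did not. The next smallest p-values belonged to Cdc23 (-0.18, SE 0.09), Cdk20 (-0.26, SE 0.14), Cenpq (-0.19, SE 0.10) and Cdc14b (0.18, SE 0.10), with limma unadjusted p from 0.082 to 0.14.

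Knockout effects at 12 days, again with ratios read as Cy5 over Cy3, ran from -0.32 for Cdk12 to 0.18 for Cdc14b. Their median was -0.02 over members and -0.01 over all genes. Turned to knockout over wild type, 2 of the 49 members with 5 values had the same sign on every array, against 4.61% of genes. As deposited 5 did, against 12.9% of genes. Of the 9 genes that passed at 15 days, 7 had a 12-day test. For Cks2 the 12-day estimate was -0.05 (95% interval -0.34 to 0.24), for Cenpn -0.03 (-0.28 to 0.21), for Cenpj -0.0045 (-0.21 to 0.20), for Cdk13 0.11 (-0.10 to 0.33) and for Ccnd1 0.02 (-0.28 to 0.32). For Cenpq it was -0.19 (-0.43 to 0.06) and for Cdc14b 0.18 (-0.07 to 0.42). Intervals were wider for Cdk12 (-0.88 to 0.23), Ccnt1 (-0.62 to 0.49) and Cdk20 (-0.58 to 0.07).

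The difference between the ages (15 minus 12 days) could be tested for 51 members, but not for Ccnb2 or Cdc20. Because of the dye design its estimate sets the 4 arrays of 15 days against 12-day replicates 2 and 3. With all ratios read as Cy5 over Cy3, no member passed in limma, against 2.28% of all genes and 2.34% of features, and 8 had an unadjusted p under 0.05, against 19.2% of genes. With the 15-day sign turned, no member and 0% of genes passed, and 3 members had an unadjusted p under 0.05, against 6.07% of genes. The largest differences under the first reading among the genes that passed at 15 days were 0.79 for Cks2 (limma adjusted p = 0.11), -0.765 for Cdk13 (0.058), 0.72 for Cenpq (0.063) and -0.70 for Cdc14b (0.074). With the sign turned they were -0.71, 0.355, -0.35 and 0.29 in the same order of genes. Among the genes that passed at 15 days, the 3 farthest from 0 were then Cks2, Cenpj (-0.60) and Cenpn (-0.545), each at limma adjusted p = 0.74. Under the first reading Cks2, Cdk13 and Cenpq passed after quantile normalization (limma adjusted p = 0.041, 0.044 and 0.015), and all 4 genes with the largest differences passed without 12-day replicate 5 (0.025 to 0.047). Of all features, 799 of 9851 passed after quantile normalization and 576 of 8642 without 12-day replicate 5. The calls of an age difference under the first reading thus depended on the normalization and on single arrays.

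Other genes of the same machinery were read from lists that left the members out. None of those with a test at 12 days passed then, and Nuf2, named below, had no such test. Of 20 genes of the anaphase promoting complex and the spindle checkpoint tested at 15 days, 4 passed below 0 and none above, with a list median of -0.09. Over all genes, as given above, 7.2% passed below 0 and 4.04% above. Those of smallest p were the checkpoint kinase relative Bub1b (-0.61), the securin gene Pttg1 (-0.51) and Mad2l2 (-0.62), whose product resembles a checkpoint protein but works in DNA repair. Of 26 kinetochore and spindle kinase genes, 4 passed below 0 and 2 above, with a median of -0.08. The outer kinetochore gene Nuf2 lay at -0.71 and the survivin gene Birc5 at -0.40, while the kinase gene Aurkb, whose product works with survivin, lay at 1.09 with 1.04, 1.74, 1.50 and 0.09 on the arrays. Of 23 genes around RB and E2F 2 passed, both below 0, namely Rbl1 (-0.41), which encodes the RB relative p107, and the ubiquitin ligase subunit gene Rbx1 (-0.37), and the median was -0.08. Of 16 cyclin or CDK-like genes that the symbol patterns leave out, 3 passed below 0 and 1 above, with Cdkl2 at -0.60, Cdk5rap2, a centrosome gene, at -0.45 and Cdk5rap3 at 0.47 among them.

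Markers of cell types lay apart at 15 days. Their lists were chosen with earlier results of these data known, so the counts below are no independent support. All 4 pachytene spermatocyte markers tested, of 19 listed, passed below 0, with array medians of -1.48, -2.09, -1.80 and -1.0 on replicates 1 to 4 and gene means of -2.16 (Slc2a3), -1.73 (Rsph1), -1.56 (Lyar) and -1.16 (Ybx3). Of 7 spermatogonial markers tested 2 passed above 0 and none below, with array medians of 0.37, 0.405, 0.12 and 0.21. The array medians of the Sertoli cell markers, of which none of 10 passed, ran from -0.05 to 0.06. Of 6 Leydig cell markers 1 passed, above 0, and the list's array medians ran from -0.01 to 0.38. Of 9 markers of peritubular cells, macrophages, endothelium and blood, 2 passed above and 2 below 0, with array medians of -0.065 to 0.24. Of the spermatid markers 1 was tested, Txndc2, at 0.81 and past the threshold. None of the markers with a test at 12 days passed then, and a few had no such test. On replicate 4 the pachytene markers lay nearest 0, as Ccnb2, Cks2 and Cenpq did, while Cenpn, Cenpj and Cdc20 did not have their value nearest 0 there. That array also had the smallest overall spread at 15 days (SD 0.31). The part of cell composition in the members' values was not tested.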

How the data were processed

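Whole-testis RNA of Spo11-/- and wild-type mice was compared on 9 spotted cDNA arrays. The deposited values are log ratios, and their base was taken as log2. The authors used a GenePix scanner, flagged spots and median-centred each array, as the design text has it. Log base, background correction and ratio direction were not given in the sources used here, and neither was signal over background, so the number of arrays limits the precision. Replicates are numbered in order of deposit. Probes of 1 platform gene were averaged, and symbols were updated through RefSeq (98.9% of such probes matched).

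Features with at least 3 values at 15 days were fitted in limma 3.58.1 (R 4.3.3) against 0. At 12 days, for features that had at least 4 values from both dye orientations, the model held knockout and dye terms, and the age difference came from 1 model of 9 arrays. P-values were two-sided and Benjamini-Hochberg adjusted over all features. The tests were checked on simulated data. Alternatives covered missing values, centring, scaling, probes, thresholds, dye terms and arrays left out.

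The members and the lists were chosen with earlier results of these data known. Named were all members that passed, the 3 of smallest p per class at 15 days, the 5 of smallest p at 12 days and up to 3 genes per pathway list that passed. Of the marker lists, all pachytene markers tested were named. Other members named for their role were chosen after their values were seen.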

Additional observations from a re-analysis of the deposited data

Results flagged for a closer look

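A sample far from the others of its group was looked for in 50 sets of 4 or 5 arrays, and chance alone marks about 1 in 20. There were 2 such cases. For Cdkn1c, the p57 gene, 15-day replicate 4 had a log2 ratio of 0.62, while the other 3 arrays lay between -0.11 and -0.01. For Ccnt1, the cyclin T1 gene, 12-day replicate 5 had -1.329 as a knockout effect, with ratios read as Cy5 over Cy3, while the other 4 arrays lay between 0.09 and 0.29. Each gene has 1 probe, so no other spot bears on either value.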

How the results depend on the processing

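At 15 days the 9 members that passed became 3 in a joint fit of both ages with the dye as a term and ratios read as Cy5 over Cy3 (1 above 0 and 2 below, of 51 tested: Cks2, Cenpq and Cdk13), 0 in that fit after turning the 15-day sign, 1 at adjusted p under 0.01 with at least 1.5-fold, and 2 to 5 with each array left out. All other alternatives gave 8 or 9. Of all features, 763 of 9851 passed in the joint fit read as Cy5 over Cy3 and 17 of 9851 with the sign turned. In the main fit 1515 of 12198 did. The joint fit with the sign turned still reads the 12-day arrays as Cy5 over Cy3. Ccnb2 and Cdc20 could not be tested in the joint fits. Of the calls lost there under the first reading, Cdc14b had 0.52, Cenpn -0.55 and Ccnd1 0.45. Cenpj, also lost, had -0.31, against -0.46 in the main fit. With the sign turned, Cks2 had -0.76, Cenpj -0.61, Cenpn -0.58, Cenpq -0.54, Cdk13 0.47, Cdc14b 0.46 and Ccnd1 0.38. In the 12-day comparison every alternative gave 0. The age difference gave 0 except for 3 members after quantile normalization (Cks2, Cdk13 and Cenpq) and 0 to 4 with each array left out: 1 without 15-day replicate 4 (Cdk13), 2 without 12-day replicate 1 (Cdc14b and Cdk13) and 4 without 12-day replicate 5 (Cdc14b, Cks2, Cdk13 and Cenpq). For the age difference, 231 of 9851 features passed in the main fit and 799 of 9851 after quantile normalization. Without 15-day replicate 4 it was 325 of 9474, without 12-day replicate 1 375 of 9079, and without 12-day replicate 5 576 of 8642. The median of all members at 15 days stayed between 0.00 and 0.05. Of the 341 single-gene values under alternatives, 300 kept direction and side of the threshold, 33 lost the call and 8 changed sign, all of these genes that had not passed: Cdc73 (-0.0775 after subtraction of the local median), Cdkn1c (-0.15 in the joint fit as Cy5 over Cy3, and -0.047 to 0.197 with each array left out, the lowest without replicate 4), Cdkn2aipnl (-0.025 in the joint fit with the sign turned, and -0.047 to 0.073 with each array left out, the lowest without replicate 1), Cdc23 (0.025 without replicate 1 and 0.02 without replicate 2) and Cdk20 (-0.037 to 0.277 with each array left out, the lowest without replicate 3). Only the 9 genes that had passed could lose a call, so all 33 lost calls are theirs. Most of the 341 values are of other genes, so the 300 are no measure of how stable the calls were. The joint fits test fewer genes and pool the spread of both ages, and fits without an array have fewer values. Beyond that the cause was not tested. No paired analysis was possible because replicate numbers follow the order of deposit and pair no arrays.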

Other observations

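The 15-day arrays fell into 2 pairs. Replicates 1 and 2 correlated at r = 0.60 across probes and replicates 3 and 4 at r = 0.59, against 0.38 to 0.51 for the other 4 pairs. Among the 57 members with 4 values, 9 (15.8%) had replicates 1 and 2 on the other side of 0 from replicates 3 and 4, against 12.2% of 6697 genes. The splits of 1 and 3 against 2 and 4 (4 members, 7.02%, against 4.09% of genes) and of 1 and 4 against 2 and 3 (2 members, 3.51%, against 4.6%) were rarer. Cdk1 (-0.37, -0.28, 0.35 and 0.27), Cdc23 (-0.34, -0.33, 0.20 and 0.20), Cenps (-0.40, -0.57, 1.16 and 0.29) and, the other way round, Cenpf (0.45, 0.30, -0.25 and -0.22) and Cdc14a (0.32, 0.18, -0.29 and -0.17) are of the first kind. Their means, from -0.07 to 0.12, thus average values of both signs, unlike that of Ccna2, whose arrays lay between -0.04 and 0.07. Whether these pairs share a litter, a slide batch or a labelling was not given in the sources used here.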
